A study of Mus musculus with 7 samples.

Results

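A set of 469 broad, isolated JUNB regions was examined, out of 2785 regions called in all 4 JUNB peak lists and of 12655 regions called in any list. Members were chosen from the peak positions themselves. Overlapping peaks, by 1 bp or more, were merged across the 4 lists, regions with a peak in every list were kept, and of these a member had a joined width of at least 1200 bp and no other such region within 12.5 kb, edge to edge. Of the 2785 regions common to the 4 lists, 16.8% met both conditions. Width, presence in the 4 lists and isolation were therefore used by the choice and are described without a test.

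The study mapped JUNB by CUT&RUN in iMGT-Myh6-eGFP-MEF cells, a mouse embryonic fibroblast line in which doxycycline (1 µg/mL here) switches on Mef2c, Gata4 and Tbx5, transcription factors of the heart, and in which eGFP reports the cardiac myosin gene Myh6. Cells of both groups carried this system and were taken at day 1. The titles give 2 JUNB libraries in which an siRNA targeted the glycosaminoglycan sulfotransferase gene Chst7 (siChst7), and 2 with a control siRNA (siControl). The treatment protocol names siJunb and siH1f0 beside siControl and not siChst7, so the groups follow the titles and treatment labels; the 3 IgG samples (2 siChst7 and 1 siControl) were not analysed here. A single engineered line limits the model, and the labels call the samples biological replicates without saying that cultures were separate, so that a p-value measures only the spread between these libraries. The lists hold no expression values and no read counts, which means that neither the knockdown of Chst7 nor the amount of JUNB bound could be checked.

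JUNB is one of the proteins that form AP-1, a dimeric transcription factor made of basic leucine zipper proteins of the JUN, FOS and ATF families that binds the palindromic element TGANTCA. AP-1 is induced by growth factors, stress and wounding, occupies many fibroblast enhancers and is known for keeping the fibroblast programme active when cells are pushed to another fate. In CUT&RUN an antibody tethers a nuclease to the protein, and the released fragments are sequenced. A peak is a stretch with more fragments than its surroundings, its summit is the point of highest signal, and its fold enrichment is the height there over the background that the peak caller set. The sources used here do not say whether that background came from the same library or from IgG.

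Sequence letters were at hand only for RefSeq promoters, here 250 bases before to 50 bases after an annotated start site on GRCm38.p6, the assembly also called mm10. The following 6 promoters overlapped members. Csrnp1 and Srxn1 are shown for AP-1 elements near the summits, Hspa5 and Rcan1 for an element whose distance to the summit varied by library, and Clcn3 and Rin1 for summits in windows without one. Each runs 5′ to 3′ on the strand of its gene, and capitals mark TGANTCA. Csrnp1 (chr9:119982974-119983273, minus strand) encodes a nuclear protein, and the start site used is one inside the annotated gene. Srxn1 (chr2:152105274-152105573, plus strand) encodes sulfiredoxin, which repairs oxidised peroxiredoxins. Hspa5 (chr2:34771840-34772139, plus strand) encodes BiP, the main chaperone of the endoplasmic reticulum. Rcan1 (chr16:92400029-92400328, minus strand), at its internal start site, encodes an inhibitor of calcineurin. Clcn3 (chr8:60954750-60955049, minus strand), also at an internal start site, encodes a chloride transporter of endosomes. Rin1 (chr19:5050565-5050864, plus strand) encodes a RAS effector that activates RAB5.
Csrnp1: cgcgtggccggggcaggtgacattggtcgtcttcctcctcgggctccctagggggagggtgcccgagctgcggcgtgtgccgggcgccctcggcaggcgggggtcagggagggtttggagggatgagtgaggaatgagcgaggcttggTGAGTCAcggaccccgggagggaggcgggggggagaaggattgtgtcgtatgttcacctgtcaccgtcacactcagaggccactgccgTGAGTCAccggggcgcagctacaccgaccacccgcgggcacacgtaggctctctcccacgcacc
Srxn1: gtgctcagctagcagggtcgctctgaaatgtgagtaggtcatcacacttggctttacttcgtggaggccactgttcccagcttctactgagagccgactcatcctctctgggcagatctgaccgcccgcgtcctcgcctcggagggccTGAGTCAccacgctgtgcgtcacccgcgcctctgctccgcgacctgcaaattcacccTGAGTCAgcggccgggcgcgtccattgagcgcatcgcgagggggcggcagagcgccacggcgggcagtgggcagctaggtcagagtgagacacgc
Hspa5: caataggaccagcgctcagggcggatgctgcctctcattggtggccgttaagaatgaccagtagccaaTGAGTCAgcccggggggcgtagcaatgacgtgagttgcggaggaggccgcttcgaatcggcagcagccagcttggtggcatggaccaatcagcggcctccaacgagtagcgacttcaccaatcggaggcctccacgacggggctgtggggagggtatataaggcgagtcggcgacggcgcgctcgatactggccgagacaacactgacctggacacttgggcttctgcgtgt
Rcan1: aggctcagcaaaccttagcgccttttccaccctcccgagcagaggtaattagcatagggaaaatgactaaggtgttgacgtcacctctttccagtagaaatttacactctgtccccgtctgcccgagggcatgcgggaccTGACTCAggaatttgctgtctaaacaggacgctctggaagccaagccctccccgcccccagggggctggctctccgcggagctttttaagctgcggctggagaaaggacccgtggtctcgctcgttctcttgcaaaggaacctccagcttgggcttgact
Clcn3: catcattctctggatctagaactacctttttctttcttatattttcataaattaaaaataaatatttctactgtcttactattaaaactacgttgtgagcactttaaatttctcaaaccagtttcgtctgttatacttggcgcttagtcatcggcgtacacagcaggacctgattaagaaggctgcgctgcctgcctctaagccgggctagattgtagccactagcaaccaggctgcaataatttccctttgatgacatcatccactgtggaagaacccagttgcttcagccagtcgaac
Rin1: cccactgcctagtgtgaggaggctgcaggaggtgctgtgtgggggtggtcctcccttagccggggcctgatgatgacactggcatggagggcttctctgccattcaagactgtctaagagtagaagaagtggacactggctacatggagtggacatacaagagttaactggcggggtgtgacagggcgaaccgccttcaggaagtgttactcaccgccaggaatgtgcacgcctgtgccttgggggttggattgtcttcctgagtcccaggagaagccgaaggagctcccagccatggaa

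Members ranged from 1200 to 3234 bp in joined width, with quartiles of 1310, 1446 and 1723 bp. Widths gathered near the lower limit, with 107 members under 1300 bp, 271 under 1500 bp and 52 of at least 2000 bp. The nearest other common region was a median of 124 kb away, and 255 members had none within 100 kb. They lay on 20 chromosomes, with 51 on chromosome 2, 39 on chromosome 1 and 35 on chromosome 5. The other common regions fell into 219 that were broad but not isolated, 1634 that were isolated but narrower, and 463 that were neither. Just inside the width limit stood regions nearest to Cyp39a1 and Wdr95, of 1200 bp each, S100a10 and Fmn1, of 1201 bp each, and Vps45, of 1202 bp. Just outside it stood isolated regions nearest to Nav2 (1199 bp), Fam107b (1198 bp), and Kcnn4, Fndc3b and Saraf (1197 bp each). The folds near Cyp39a1 were 14.1 and 6.59 in the siChst7 libraries and 12.8 and 7.63 in the siControl libraries. Those near Nav2 were 9.23 and 7.13 in the siChst7 libraries and 7.73 and 9.32 in the siControl libraries.

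**Figure D1:**
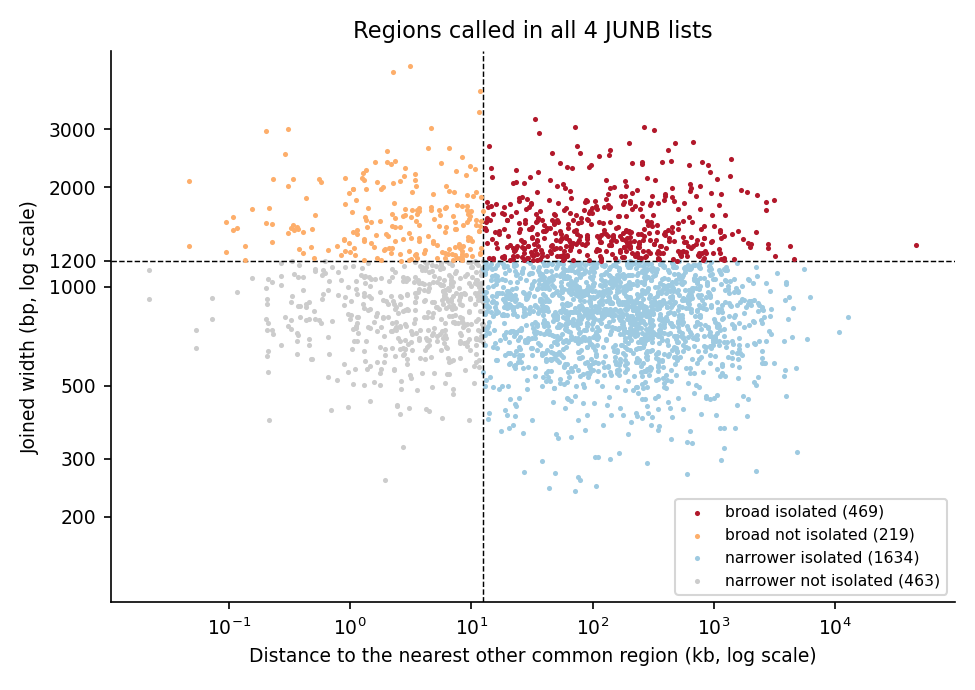
Joined width (bp, log scale) of each of the 2785 common regions against the distance to the nearest other common region (kb, log scale), 1 point a region, with dashed lines at 1200 bp and 12.5 kb. The 469 members fill the upper right part, most of them close to the width limit.

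The joined width rested unevenly on the 4 libraries. The lists held 10163 and 4735 peaks for siChst7 replicates 1 and 2, against 6469 and 5827 for siControl replicates 1 and 2, so that the longest and the shortest list carried the same siRNA. The median length that a list's own peaks spanned in a member was 1323 and 925 bp in siChst7 replicates 1 and 2, against 1061 and 935 bp in siControl replicates 1 and 2. The span reached 1200 bp in 325 members (69.3%) in siChst7 replicate 1 and in 121 (25.8%) in siChst7 replicate 2, against 163 (34.8%) and 127 (27.1%) in siControl replicates 1 and 2. It did so in all 4 lists for 56 members (11.9%), in exactly 1 list for 189 (40.3%) and in no list for 93 (19.8%), where the width arose from peaks that were offset between lists. For 142 members siChst7 replicate 1 was the 1 list that spanned the minimum, and its peaks were the widest in 309 members. Without that library the same rule found 255 regions, 249 of which overlapped the 469. Broad, as used here, thus describes the 4 lists joined and less often a single library.

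Within each list the peaks of members stood high. The median fold of the highest peak was 13.3 and 9.33 in siChst7 replicates 1 and 2, against 10.7 and 9.39 in siControl replicates 1 and 2. In percentiles of their own lists these medians were 90.9 and 79.7 for siChst7 and 84.6 and 81.0 for siControl, against 80.6 and 63.2 for siChst7 and 71.2 and 69.0 for siControl in the narrower isolated regions. The top 10% of all 4 lists held 90 members (19.2%), as it did 42 of the 219 broad regions that were not isolated (19.2%), 82 of 1634 narrower isolated ones (5.02%) and 21 of 463 narrower ones that were not isolated (4.54%). At the other end, 22 and 87 members lay below the median fold of the siChst7 lists and 73 and 78 below that of the siControl lists. Width and height are outputs of the same peak caller, so these shares are descriptions. Folds and ranks of the siRNA groups are printed side by side here and below. Each is a value from its own list, the lists differ in length, and no difference in fold between libraries was tested.

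**Figure D2:**
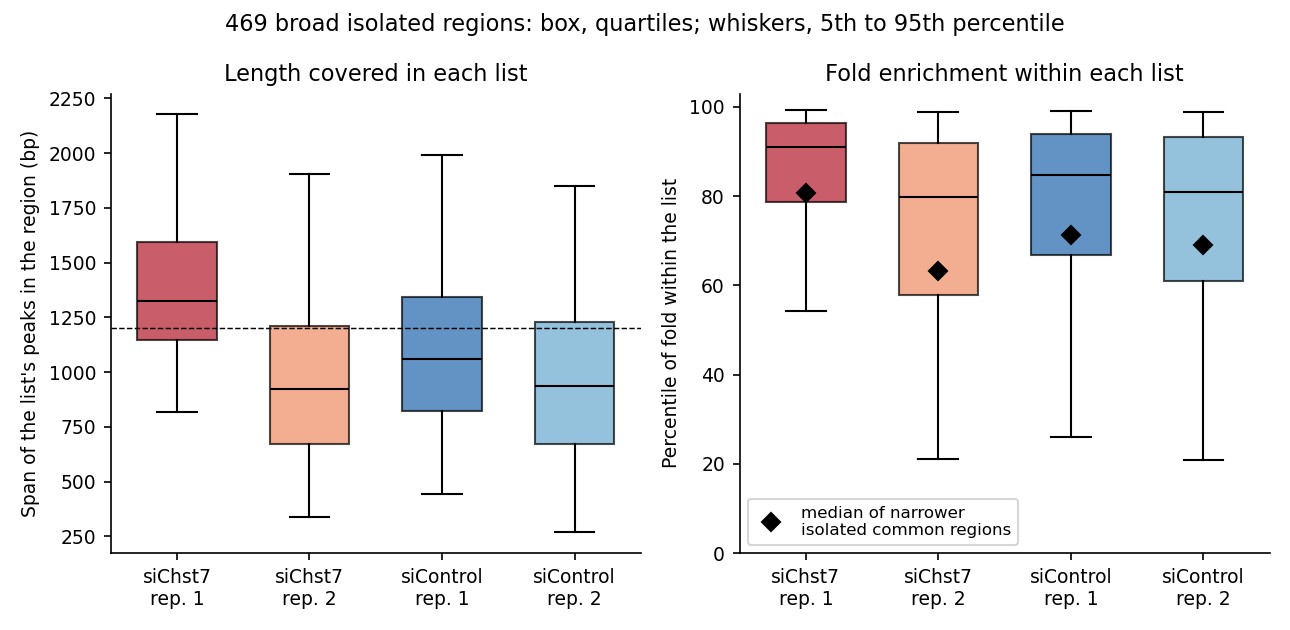
Left, the length (bp) that each list's own peaks spanned in the 469 members, with a dashed line at 1200 bp; right, the percentile of the member's fold within each list, with diamonds for the median of narrower isolated regions. Boxes are quartiles and whiskers run from the 5th to the 95th percentile; siChst7 replicate 1 had the longest spans, with a median of 1323 bp.

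The members with the highest ranks by fold, averaged over the lists, included regions in or by Src, Nfatc2, Tns1 and Eya4. A 1823 bp region inside Src (chr2:157447102-157448924), the founding tyrosine kinase of its family, had folds of 78.5 and 40.6 in the siChst7 libraries and 33.5 and 42.8 in the siControl libraries. It was the second strongest peak of siChst7 replicate 1 and the 4th of siChst7 replicate 2, against the 16th and 5th of siControl replicates 1 and 2, and its 4 summits fell within 56 bp. A region by Nfatc2 (chr2:168517594-168519098), which encodes a calcium-responsive transcription factor, had folds of 42.3 and 31.8 in the siChst7 libraries and 32.6 and 34.2 in the siControl libraries, with summits within 21 bp. The region inside Tns1 (chr1:73997996-73999439), which links integrins to actin, had folds of 31.0 and 26.0 in the siChst7 libraries and 30.9 and 26.9 in the siControl libraries, with summits within 22 bp. Arhgap24, a GTPase activator for RAC, had folds of 43.3 and 24.2 (siChst7) against 35.9 and 27.6 (siControl) at chr5:102576456-102577904. Eya4, a phosphatase and transcriptional coactivator, had 39.5 and 26.5 (siChst7) against 30.2 and 28.9 (siControl) at chr10:23176824-23178272. Regions by Tmem230, Wdr70, Sh3bp2 and Ahnak2 were also among the 10 highest. In 9 of the 10 highest members all 4 libraries placed the strongest summit within 60 bp; by Sh3bp2 the summits were up to 516 bp apart.

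Several of the widest members were joined from more than 1 peak in a list. The widest of all, 3234 bp (chr9:56870466-56873699), lay inside Cspg4, which encodes the chondroitin sulfate proteoglycan NG2. The list of siChst7 replicate 1 covered it with 1 peak and each of the other 3 lists with 2. Its folds were 12.7 and 9.13 in the siChst7 libraries and 10.8 and 11.5 in the siControl libraries. The strongest summit lay on the left for both siChst7 libraries and siControl replicate 1, and on the right for siControl replicate 2, up to 2079 bp away. The 3059 bp region in Ahnak2 (chr12:112795508-112798566) differed in being both wide and tall, with folds of 46.7 and 34.1 in the siChst7 libraries and 40.2 and 23.8 in the siControl libraries. Its 4 strongest summits fell within 39 bp, and siChst7 replicate 2 split off a second, weaker peak with a fold of 4.91. A 3044 bp region at Zfp367 (chr13:64152916-64155959) held 1 and 3 peaks in the siChst7 lists and 2 and 3 in the siControl lists, with folds between 5.80 and 10.1. A 2987 bp region (chr17:23674762-23677748) inside Tnfrsf12a, the receptor for the cytokine TWEAK, had folds of 29.5 and 21.4 in the siChst7 libraries and 26.8 and 17.2 in the siControl libraries. One of 2925 bp lay 30.5 kb from Arntl, the circadian transcription factor also called BMAL1. Its folds were 12.7 and 11.9 (siChst7) against 18.7 and 13.7 (siControl) at chr7:113146527-113149451. The 10 widest also included regions in or by S100a3, Fam214b, the histone H3K27 demethylase gene Kdm6b, and Ralgps1.

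Only 2 members had a fold under 3 in all 4 lists. A region nearest to Zfp825 (chr13:74528717-74530482) had folds of 1.99 and 1.85 in the siChst7 libraries and 1.49 and 2.26 in the siControl libraries. One 164 kb from Tcte2 (chr17:13551588-13552873) had 1.69 and 1.81 in the siChst7 libraries and 1.495 and 2.11 in the siControl libraries. Their −log10 q values reached 19.1 and 15.2 in siControl replicate 2 despite these folds.

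How many separate peaks a list placed in a member was not itself a criterion of the choice, but it was not independent of it. Peaks of 1 list came together only where a peak of another list bridged them, and the width limit acted on the same joined peaks. In 322 members (68.7%) every list held a single peak, and in 147 (31.3%) some list held 2 or 3. More than 1 peak was present in 37 members (7.89%) and 52 (11.1%) in siChst7 replicates 1 and 2, against 62 (13.2%) and 73 (15.6%) in siControl replicates 1 and 2. The mean share was 9.49% ± 2.26 in siChst7 and 14.4% ± 1.66 in siControl (SD, n = 2 each), a difference of −4.90 percentage points. Both siChst7 values lay below both siControl values, and exact permutation gave a two-sided p of 0.333, the smallest that 4 libraries allow, so the test could not reach 0.05. Because the count also depends on the joined peaks used by the choice, no conclusion about the siRNA is drawn from it. The siChst7 library with the fewest divided members was also the one with the longest list and the longest spans, and without it the difference was −2.35 points (exact permutation p = 1). With the 4 lists cut to equal length it was −2.87 points (exact permutation p = 1), and under joining by 50% reciprocal overlap it was 0. In broad regions that were not isolated the shares were 11.9% and 12.3% in siChst7, against 13.7% and 18.3% in siControl. In narrower isolated regions the shares were 0.918% and 1.10% (siChst7) against 0.857% and 1.35% (siControl).

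Summits of the strongest peak were spread over a median of 273 bp between the 4 lists. The spread was at most 100 bp in 117 members (24.9%), at most 500 bp in 360 (76.8%) and above 1000 bp in 30 (6.40%). The median was 280 bp in broad regions that were not isolated and 160 bp in narrower isolated ones, and a wider region leaves more room for summits to part. Between pairs of libraries the median distance was 78 bp for the siChst7 pair and 91 bp for the siControl pair, and between 72 and 107 bp for the 4 pairs of unlike siRNA. Libraries with the same siRNA were a mean of 84.5 ± 9.19 bp apart (SD, n = 2 pairs) and those with unlike siRNAs 83.0 ± 16.4 bp (SD, n = 4 pairs). The difference of 1.5 bp had an exact permutation p of 1 over the 3 ways of pairing 4 libraries. Leaving out 1 library gave differences between −8.5 and 21 bp. Among the 5 largest distances beside that in Cspg4 were 1737 bp by Ppig, 1544 bp by Lims1 and 1425 bp by Itpripl2.

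In 5 members the summits parted by siRNA, with both siChst7 summits within 100 bp of each other, both siControl summits within 100 bp, and more than 300 bp between every unlike pair. This count was chosen after values were seen; its one-sided exact permutation p over the ways of pairing was 0.333, the smallest possible, and leaving out 1 library gave 17 to 30 such members, since fewer pairs then had to meet the limits. At Hspa5 (chr2:34769892-34772298) the strongest summits lay at −613 and −638 bp from the middle in siChst7, and at 676 and 674 bp in siControl. Peaks covered both places in both groups. The siControl lists held a left peak as well, with folds of 8.46 and 6.45 beside 12.3 and 8.69 on the right, and siChst7 replicate 2 held a right peak with a fold of 7.99 beside 12.1 on the left. At Pim1 (chr17:29488702-29490174), which encodes a growth-promoting kinase, each list held 1 peak. Its summits lay at −390 and −470 bp from the middle in siChst7 and at 436 and 380 bp in siControl. Both siChst7 peaks also covered the places of the siControl summits. The folds were 8.63 and 9.13 in siChst7 and 7.71 and 4.94 in siControl, the last below its list's median of 6.62. At Sil1 (chr18:35298348-35300309), whose product exchanges nucleotide on BiP, the summits lay at 136 and 55 bp from the middle in siChst7 and at −255 and −288 bp in siControl. The remaining members were one inside Ripor2 (chr13:24565023-24566288), an inhibitor of RHOA, and one 44.9 kb from Nln (chr13:103977448-103978789), a peptidase gene.

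**Figure D3:**
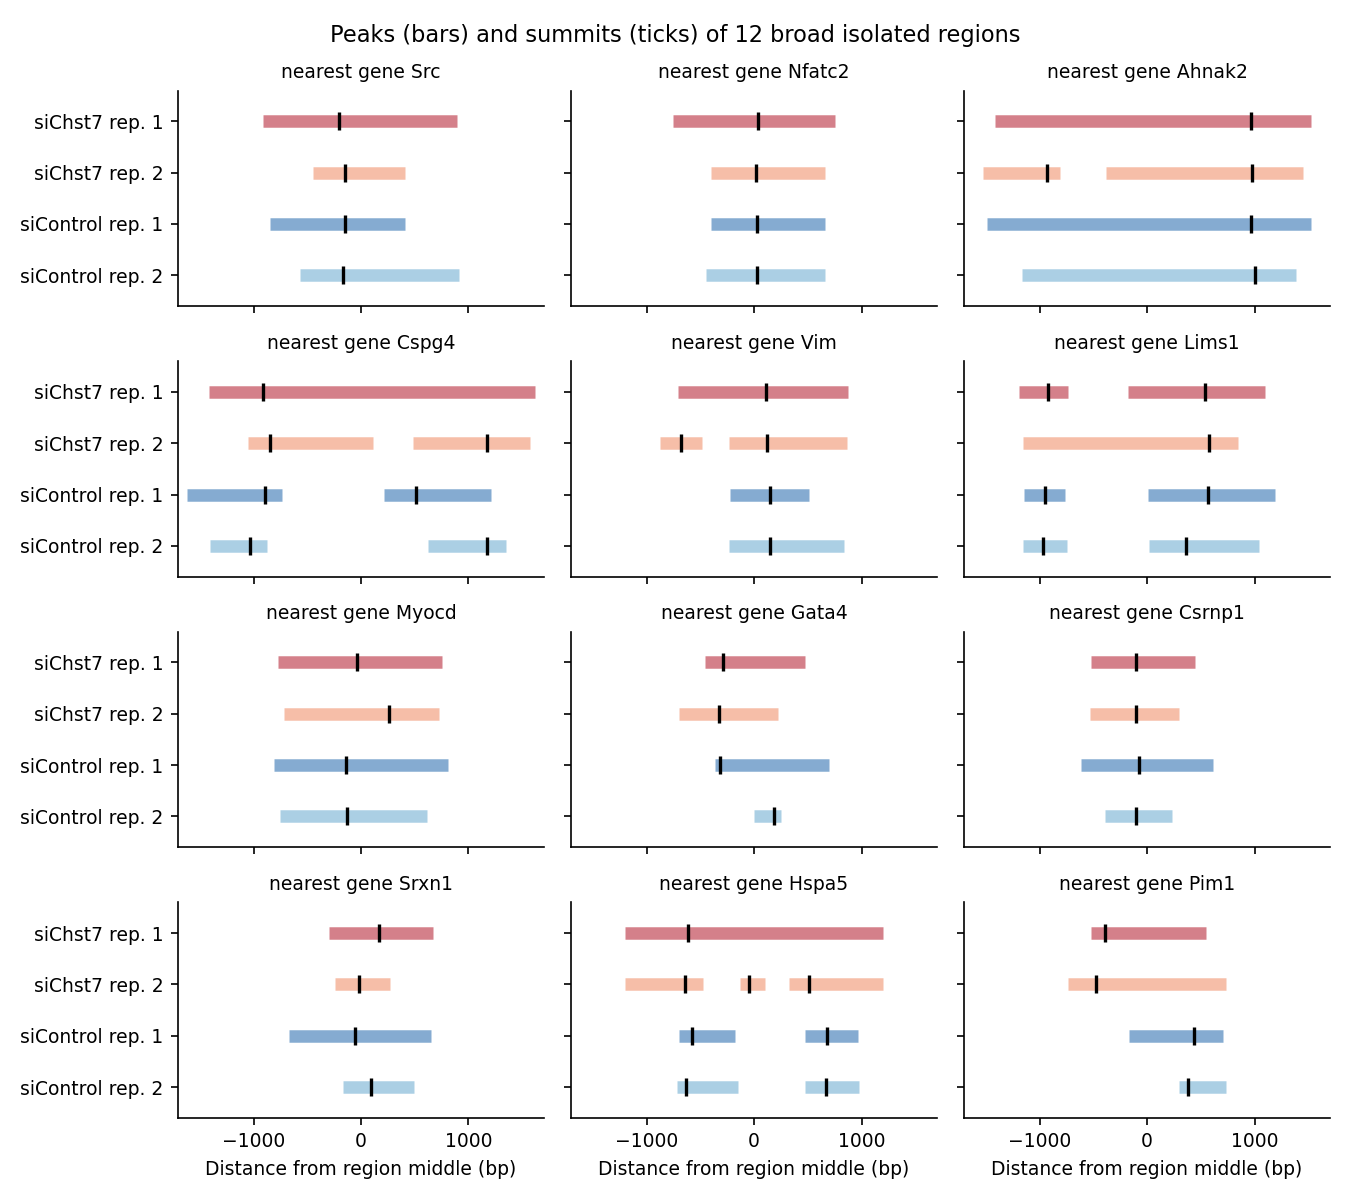
Peaks (bars) and summits (ticks) of 12 members in each library, by distance (bp) from the middle of the region, siChst7 above siControl. At Src and Nfatc2 the 4 summits coincide within 56 and 21 bp; at Cspg4, Lims1 and Hspa5 the region is made of separate peaks, and at Hspa5 and Pim1 the strongest summit differs between the siRNAs.

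Most members lay away from gene ends. A distance was taken from the middle of a region to the nearest end of a protein-coding gene in the RefSeq table. Within 1 kb of an end lay 35 members (7.46%, 95% exact binomial interval 5.25 to 10.2), 130 (27.7%) lay 1 to 10 kb away, 245 (52.2%) 10 to 100 kb and 59 (12.6%, interval 9.72 to 15.9) farther. Inside a gene lay 262 (55.9%, interval 51.2 to 60.4). Narrower isolated regions lay within 1 kb of an end in 8.57% (interval 7.26 to 10.0) and inside a gene in 51.7% (interval 49.2 to 54.1), and both intervals overlap those of the members. Inside a gene lay 48.4% (interval 41.6 to 55.2) of broad regions that were not isolated and 45.1% (interval 40.5 to 49.8) of narrower ones that were not; the last interval does not overlap that of the members, and the difference was not tested. The median distance was 20.1 kb in members and in narrower isolated regions. It was 19.0 kb in broad regions that were not isolated and 18.7 kb in narrower ones that were not. The intervals cover counting error only and treat regions as independent. Of the 35 members by an end, 19 were at a 5′ end, 9 at a 3′ end and 7 at a gene with no strand in the promoter table. By summits, 6.61% and 7.04% of members lay within 1 kb of an end in siChst7, against 7.25% and 6.82% in siControl. The difference of −0.213 percentage points in the means, 6.82% ± 0.302 in siChst7 and 7.04% ± 0.302 in siControl (SD, n = 2 each), had a two-sided exact permutation p of 0.667, and was 0.392 points without siChst7 replicate 1.

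A promoter window was touched by 43 members (9.17%), by 11.4% of broad regions that were not isolated and by 7.71% of narrower isolated ones. Of narrower regions that were not isolated, 5.83% touched one. The members touched 55 windows in all, some of several starts of 1 gene. The element TGANTCA, searched on both strands, was present in 12 of the 55 (21.8%), and 7.81% of all 32851 promoters in the table held it. Windows touched by narrower isolated regions held it in 21.6%, and those touched by broad regions that were not isolated in 24.2%. For narrower regions that were not isolated the share was 38.2%. The cyclic AMP response element TGACGTCA, bound by ATF and CREB dimers, does not contain TGANTCA and was present in 2 of 55 (3.64%; 1.79% of all). GGAATG, read by TEAD factors, was present in 6 (10.9%; 14.7% of all), and AGATAA, read by GATA factors, in 1 (1.82%; 11.2% of all). These are matches of letters and not sites of binding. A summit of at least 1 library fell in the window itself for 12 of the 43 members (27.9%). It did so for 9 of 25 broad regions on a promoter that were not isolated (36%) and for 65 of 126 narrower isolated ones (51.6%). A wider region can touch a window with its summit farther off, and width was used by the choice.

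The promoters printed above show these patterns. At Csrnp1 the middles of the elements lay at −99 and −11 bases from the start site. The summits lay at 50 and 47 bases in siChst7 and at 23 and 55 in siControl, 34 to 66 bp from the nearer element. Its folds were 13.8 and 16.3 in the siChst7 libraries and 16.1 and 15.5 in the siControl libraries, at chr9:119982465-119983686. Srxn1 had its elements at −99 and −42 bases. Its summits lay 115 and 9 bp from the nearer one in siChst7 and 43 and 41 bp in siControl, and its folds were 10.0 and 6.85 in siChst7 and 7.40 and 4.58 in siControl. At Hspa5 the middle of the element lay at −179 bases. It was 1429 and 1454 bp from the strongest summit in siChst7 and 140 and 142 bp in siControl. At Rcan1 the element, at −107 bases, was 1179 and 488 bp from the summit in siChst7 and 177 and 1157 bp in siControl, with no grouping by siRNA. Clcn3 was the 1 promoter with all 4 summits in its window, at −232 and −190 bases in siChst7 and at −248 and −217 in siControl, and its letters hold no TGANTCA. Rin1 had 3 summits in its window and likewise none.

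**Figure D4:**
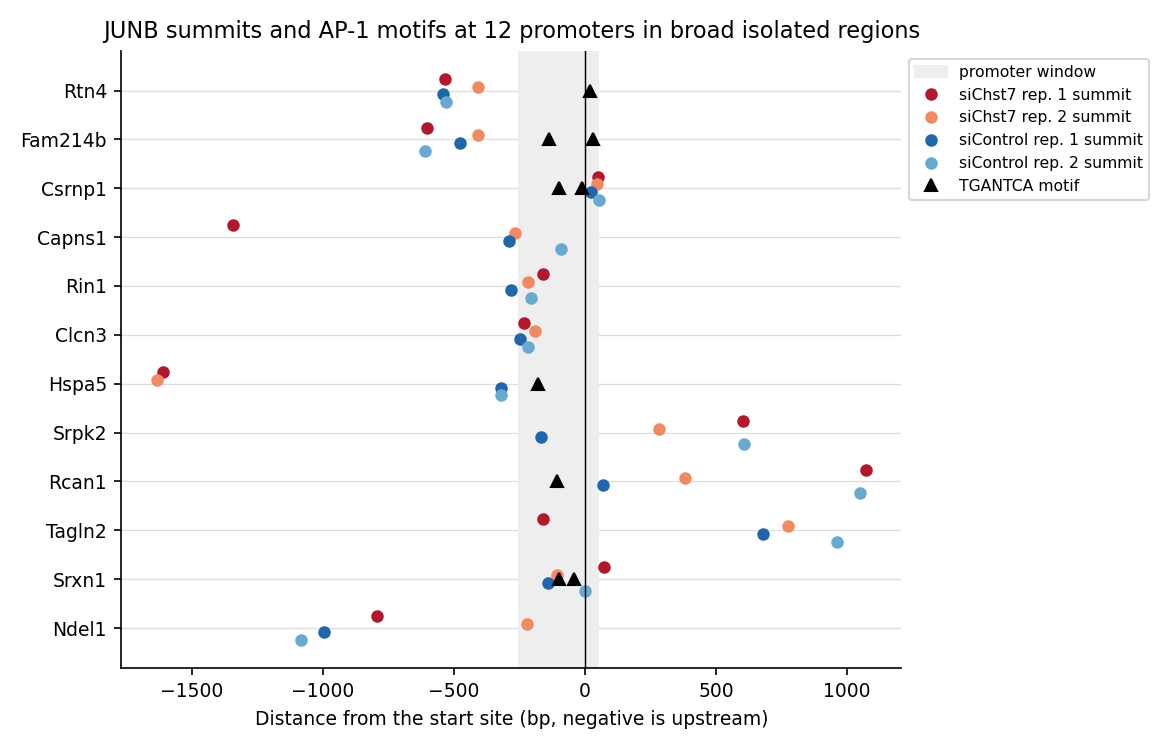
Distance (bp, negative upstream) of each library's strongest summit (points) and of TGANTCA matches (triangles) from the start site at 12 promoters in members, the window shaded. Summits of Csrnp1 and Srxn1 lie near the elements, those of Clcn3 lie in the window without one, and those of Hspa5 are split by siRNA.

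Each member was assigned to the protein-coding gene whose end lay nearest, up to 100 kb away, and 395 of 21900 protein-coding genes (1.8%) owned one; 1823 (8.32%) owned any common region. Nearness does not show which gene a region acts on. Bach2 owned 3 members and 13 other genes owned 2 each, among them Cflar, Enah, Fmn1, Gipc2, Inpp5f, Myc, Nfatc2, Nsmce2, Phlda1, Ripor2 and Tmem43. The shares by gene list that follow are counts beside the 1.8%, with no test.

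Among actin and contractile genes, 7 of 30 (23.3%) owned a member and 13 any common region. The members of Actn4 and Actn1, the alpha-actinins that bundle actin, lay inside those genes. The Actn4 region (chr7:28930525-28931757) had folds of 20.4 and 14.3 in the siChst7 libraries and 18.04 and 16.1 in the siControl libraries, and the Actn1 region (chr12:80228791-80230157) 15.0 and 9.93 in the siChst7 libraries and 15.2 and 10.5 in the siControl libraries. Pdlim7, a scaffold of actin fibres, owned one inside the gene with folds of 15.1 and 11.5 (siChst7) against 11.3 and 11.0 (siControl). Tpm1 (tropomyosin), Fhl2 and Tagln2 (transgelin 2) also owned members, and the Tagln2 region lay over the gene's promoter. The count of 7 was 2 without siChst7 replicate 1 and 3 with assignment within 20 kb.

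Integrin and focal adhesion genes owned members in 5 of 26 cases (19.2%), and any common region in 16. Beside Src and Tns1 these were Lims1, Fermt2 and Itga5. Lims1 encodes PINCH1 of the integrin-linked kinase complex, and its 2389 bp member (chr10:58321044-58323432) 1.10 kb from the gene's end had folds of 16.7 and 11.1 in the siChst7 libraries and 13.5 and 7.67 in the siControl libraries. It was made of 2 peaks in 3 lists, and the left one was the stronger in siControl replicate 2 alone. Fermt2, the integrin activator kindlin-2, had folds of 7.35 and 9.46 (siChst7) against 5.53 and 6.94 (siControl). Itga5, the alpha chain of a fibronectin receptor, had 6.94 and 4.94 (siChst7) against 7.06 and 7.44 (siControl). The count of 5 was 3 without siChst7 replicate 2, 9 with a minimum width of 1000 bp and 2 with assignment within 20 kb.

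Immediate-early genes and feedback genes of the MAP kinase pathway owned members in 6 of 27 cases (22.2%), and any common region in 15. Phlda1, a growth-factor-induced gene, owned a member 75.05 kb away (chr10:111582911-111584479) and another 8.03 kb away, and a further member lay 111 kb from it, beyond the assignment limit. The folds of the nearest were 11.7 and 8.78 in the siChst7 libraries and 14.0 and 9.13 in the siControl libraries. Myc, the growth transcription factor, owned one 58.9 kb away (chr15:62048481-62050070) with folds of 24.3 and 23.9 in the siChst7 libraries and 16.03 and 14.9 in the siControl libraries. A second lay 1.36 kb from Myc and was lower, with folds of 9.66 and 6.04 (siChst7) against 6.44 and 8.70 (siControl). Dusp5, a phosphatase that inactivates ERK, owned one inside the gene with 15.6 and 10.1 (siChst7) against 9.02 and 8.70 (siControl). Klf6, Ier5 and Ereg owned the others; the Klf6 member of 2260 bp lay 0.553 kb from the gene. The count of 6 was 4 without siChst7 replicate 1 and 4 without siControl replicate 1.

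Of the AP-1 family only Bach2, 1 of 20 genes (5.00%), owned a member, although 11 owned some common region. BACH2 is a basic leucine zipper repressor that pairs with small MAF proteins. Its 3 members lay on chromosome 4, 2 inside the gene and 1 at 37.5 kb from it. The strongest (chr4:32249908-32251452) had folds of 21.9 and 10.3 in the siChst7 libraries and 17.4 and 15.5 in the siControl libraries, with summits within 48 bp. The count was 2 without siChst7 replicate 2 and 6 with a minimum width of 1000 bp. Of 16 Hippo pathway genes none owned a member and 7 owned a common region. The count was 1 with a minimum width of 1000 bp, isolation of 5 kb, a fold of at least 5 or equal list lengths.

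Fibroblast identity genes owned members in 3 of 34 cases (8.82%) and any common region in 11. Vim, the intermediate filament vimentin of mesenchymal cells, owned one 0.714 kb from its end, and its summits lay at −602 and −593 bases from its start site in siChst7 and at −564 and −565 in siControl. Loxl1, an elastin cross-linker, owned one 12.4 kb away with folds of 14.7 and 10.7 (siChst7) against 13.3 and 10.4 (siControl). Thy1, a fibroblast surface marker, owned one 98.0 kb away with 24.8 and 7.61 (siChst7) against 12.2 and 10.4 (siControl). The count was 0 without siChst7 replicate 1 and 6 with a minimum width of 1000 bp. TGF-beta signalling genes owned members in 3 of 24 cases (12.5%), and in 1 without siChst7 replicate 1 or with assignment within 20 kb. Thbs1, which encodes thrombospondin-1, an activator of latent TGF-beta, owned one 1.06 kb away with folds of 12.2 and 9.88 (siChst7) against 12.1 and 12.2 (siControl). Smad3, the signal transducer, owned one inside the gene with 15.3 and 14.3 (siChst7) against 5.90 and 8.13 (siControl). Tgfbr3, the coreceptor betaglycan, owned one inside the gene with 17.5 and 8.57 (siChst7) against 8.52 and 6.996 (siControl).

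Of the 38 genes that build chondroitin and heparan sulfate, the pathway in which Chst7 acts, none owned a member, and 7 (18.4%) owned a common region of another class. With a minimum width of 1000 bp, 3 of the 38 owned a member. Of 22 proteoglycan core proteins, which carry these chains, Cspg4 and Tgfbr3 owned a member (9.09%), both lost without siChst7 replicate 1, and 5 did at 1000 bp. Matrix proteases and their inhibitors owned none in 20 (1 at 1000 bp), and 4 owned another common region. NF-kB and cytokine genes owned members in 2 of 22 cases (9.09%). These were Tnfaip3, the NF-kB inhibitor A20, with folds of 18.04 and 15.5 (siChst7) against 14.2 and 12.2 (siControl), and the cytokine gene Lif, with 8.83 and 6.91 (siChst7) against 6.44 and 8.84 (siControl). The count of 2 was 1 when either siChst7 library was left out, 4 at 1000 bp, and 0 at 1500 bp or with assignment within 20 kb.

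Cardiac transcription factor genes owned members in 4 of 23 cases (17.4%) and any common region in 6. Of 30 genes of cardiomyocyte structure and ion handling none owned a member and 3 (10.0%) owned another common region. Among all protein-coding genes the shares were 1.8% and 8.32%. A list of 30 genes can hold none at such a share, so no contrast between the 2 lists is drawn. Gata4, one of the factors the cells were made to express, owned one 37.2 kb from its nearer end (chr14:63308208-63309602), with folds of 13.3 and 7.68 in the siChst7 libraries and 7.71 and 9.32 in the siControl libraries. Gata6, its relative in heart development, owned one at 79.4 kb (chr18:11164285-11165771) with 15.4 and 8.51 in the siChst7 libraries and 19.6 and 11.8 in the siControl libraries. Mef2d owned one at 1.41 kb (chr3:88139721-88141339) with 17.3 and 10.1 in the siChst7 libraries and 9.02 and 13.0 in the siControl libraries. Myocd, a coactivator of serum response factor in muscle, owned one at 96.3 kb (chr11:65365446-65367056) with folds of 20.8 and 12.5 in the siChst7 libraries and 15.8 and 18.9 in the siControl libraries; another member 178.69 kb from Myocd was beyond the limit. The count of 4 was 2 without siControl replicate 2 and 1 with assignment within 20 kb.

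Marker genes of other cell types were counted in the same way. None of 10 macrophage, 10 epithelial or 9 neuronal markers owned a member, and 0, 3 and 1 of them owned any common region. Of 10 endothelial markers 1 owned a member (10.0%) and 5 any common region. The 1 was Vwf, a clotting protein that endothelial cells store, with folds of 6.92 and 8.23 (siChst7) against 9.49 and 5.87 (siControl). Of 9 smooth muscle and pericyte markers 1 owned a member (11.1%), Cspg4, and 2 any common region. Vwf was not counted when either siControl library was left out, nor Cspg4 without siChst7 replicate 1. The identity of the cells could not be checked further, because peak lists hold no expression.

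**Figure D5:**
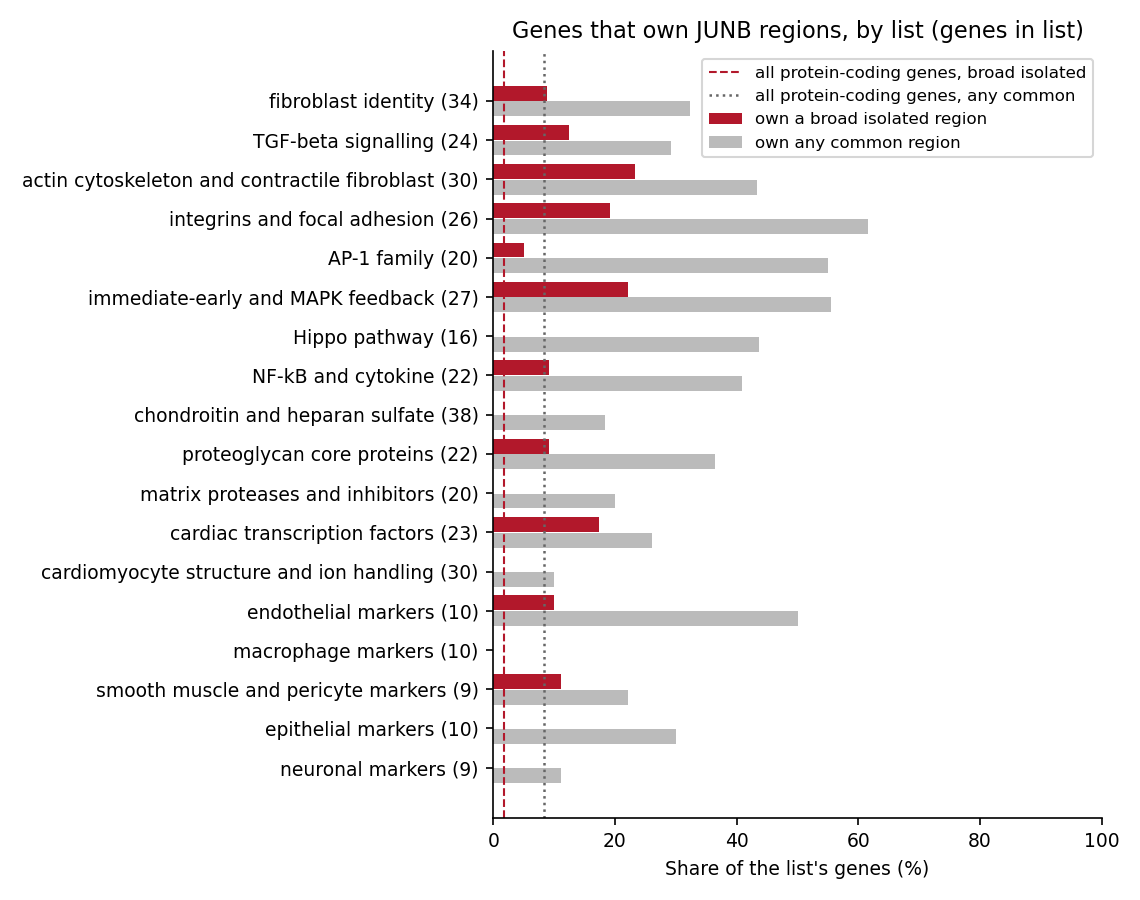
Share (%) of the genes in each of 18 lists that owned a broad isolated region (red) or any common region (grey), with the number of genes in brackets and lines at 1.8% and 8.32% of all protein-coding genes. Actin, immediate-early and adhesion lists show the longest red bars, at 23.3%, 22.2% and 19.2%, and 7 lists show none.

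A few tall members sat on promoters or gene ends of other kinds of genes. Tmem43, an inner nuclear membrane protein, owned 2, one 0.412 kb from the gene (chr6:91488131-91489620) with folds of 49.6 and 27.4 in the siChst7 libraries and 26.1 and 20.3 in the siControl libraries. Wwc1, the Hippo regulator KIBRA, was not in the Hippo list used here. Its member (chr11:35837504-35839520) lay 0.113 kb from the gene's end, with folds of 28.3 and 25.2 in the siChst7 libraries and 25.1 and 23.0 in the siControl libraries. Cflar, the caspase-8 inhibitor c-FLIP, owned one 0.758 kb from its end (chr1:58711404-58712735), with 24.8 and 20.6 in the siChst7 libraries and 17.3 and 17.7 in the siControl libraries. Rtn4, the reticulon of the endoplasmic reticulum also called Nogo, had 25.2 and 19.4 in the siChst7 libraries and 20.2 and 16.7 in the siControl libraries (chr11:29691530-29693418). Its promoter held TGANTCA 18 bases past the start, while the summits lay at −532 and −409 bases in siChst7 and at −541 and −531 in siControl. Each list placed a single peak in each of these 4 members.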

How the data were processed

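JUNB CUT&RUN peaks of 4 libraries were used, 2 per siRNA; 3 IgG samples were not analysed. Per the submitters' processing notes the authors used Bowtie2, MACS3 and mm10; versions, settings and any use of IgG are not given in the sources used here. Lists were called per library, per the deposited peak names. In the deposited lists the fold enrichment is a ratio from the authors' peak caller, p- and q-values are −log10, and the score is a rounded copy of the q column and was not used. The lists end near a q of 0.01. Labels state 30 M reads; depth per library is unknown.

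Peaks overlapping by 1 bp were joined and classed as described above. The strongest peak of a list in a region gave its fold, percentile and summit. Coordinates are 1-based. Genes, strands and promoters came from RefSeq for GRCm38.p6; all 380 entries of the 18 lists matched. No genome sequence was used, so motifs were searched in promoters only, and exons were not told from introns. Libraries were compared by exact permutation; regions are not replicates. Same-numbered libraries were compared as pairs as an alternative (correlation of deviations 0.077, 2 pairs).

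The members and lists were chosen with earlier results of these data known. Named members were the widest 10, the 10 highest by mean percentile of fold, those at the width limit, those by listed genes (up to 5 a list), up to 10 at promoters or gene ends, those with a fold under 3 in every list, and the 5 with the most distant summits or the most peaks. The printed promoters, the count of members with parted summits, and the genes of lists beyond the rule were chosen after values were seen. A few members picked by this rule are not reported here. Alternatives were the width (1000 and 1500 bp), isolation, overlap, q, fold, list length, each library left out, gene windows and assignment. The joining was tested on simulated lists. Software was Python 3.11.15, NumPy 2.4.6, pandas 2.3.3, SciPy 1.17.1 and Matplotlib 3.10.9.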

Additional observations from a re-analysis of the deposited data

How the results depend on the processing

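The number of members moved most with the width. It was 827 at 1000 bp, 198 at 1500 bp, 187 where 2 lists had to span the width themselves (added after seeing the data) and 255 without siChst7 replicate 1, and leaving out each library in turn gave 255 to 427. Genes owning a member followed, at 668, 167, 162 and 214 under these settings and 232 with assignment within 20 kb, and at 214 to 360 with a library left out. The share of members near a gene end was 14.7% for a window of 2.5 kb, and 6.78 to 8.29% with a library left out; inside a gene it was 54.9 to 57.0%.

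The summit difference between like and unlike siRNAs turned negative, at −2 bp with isolation of 25 kb, −8.5 bp without siChst7 replicate 1, −6 bp without siControl replicate 1 and −2.75 bp with the width in 2 lists, within a range of −8.5 to 21 bp. The difference in summits near gene ends turned positive, at 0.392 points without siChst7 replicate 1 and 0.267 with the width in 2 lists, within −0.820 to 0.392. The cause of these turns was not tested. The smallest p that these libraries allow by exact permutation is 0.333, so no setting could give a lower one. The difference in divided members stayed at or below 0 in every setting run, from −11.1 at 1500 bp to 0 with 50% reciprocal overlap, and from −6.56 to −2.35 with a library left out. These settings reuse the same libraries and choose members from the same peaks, so they do not add independent support.

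With the replicate number as a block, the difference in divided members was −4.90 points (exact permutation p = 0.5; −5.33 and −4.48 within the numbers) and that in gene-end summits −0.213 (exact permutation p = 1; −0.640 and 0.213); the numbers were not shown to pair the libraries, and a block of 2 pairs cannot give a p below 0.5. Of 113 values of the main results under the alternatives, 6 turned in sign, 10 moved and 97 did neither, differences of 0 included. Shares counted as moved outside their 95% interval, and counts beyond 1.5 times. Differences between groups were judged by sign alone, so the 97 include some that changed in size. Among these were 21 bp for summits without siChst7 replicate 2 and −11.1 points for divided members at 1500 bp. Of 288 list counts 236 stayed within 1.5 times, and these include counts that stayed at 0 among the 7 lists without a member. The limit to autosomes and X left all 469 members in place, so its values could not move. The members with summits parted by siRNA numbered 2 at 1500 bp and 3 with 50% reciprocal overlap. Without counts, weak signal below a list's threshold cannot be told from absence.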

Other observations

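Some members touched start sites of RNAs other than protein-coding genes. One lay over the start of Morrbid, a long noncoding RNA known from myeloid cells, whose promoter held TGANTCA and 2 of the 4 summits, and whose region had folds of 8.16 and 6.27 in the siChst7 libraries and 12.9 and 7.73 in the siControl libraries. The region by Thbs1 also held the start of Gm13986, with 2 TGANTCA matches in its promoter. The tall region 75.05 kb from Phlda1 lay over the starts of Gm30262, whose promoters held none. Within 20 kb of members lay 11 microRNA genes, the nearest being Mir6945 at 2.43 kb from the Pdlim7 member. No background share is given beside this count, and the expression of these genes was not measured here.

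Members on promoters included Per1, a circadian repressor gene, with folds of 15.1 and 15.9 in the siChst7 libraries and 9.02 and 11.8 in the siControl libraries and summits within 110 bp. The Per1 window itself held no summit and no TGANTCA. The member nearest to Arntl, also a gene of the circadian clock, lay 30.5 kb from it. These 2 genes were picked out after their values were seen. No clock list was counted, so no share stands beside them.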
